A study of Mus musculus with 84 samples.

Results

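Microglia sorted from mouse brain 14 days after a severe traumatic brain injury were compared with microglia sorted 7 days after it, in animals that had received PBS liposomes, the vehicle of the study. The comparison rests on all 9 libraries of this kind that share a year in their library names, 5 of day 14 (numbers 1 to 5) and 4 of day 7 (numbers 2 to 5), out of 84 libraries in the series. The series asked how loss of circulating monocytes, which clodronate liposomes deplete, changes microglia over the first 60 days after injury. The vehicle groups share the injury and a liposome injection, so neither is an untreated or an uninjured reference, and the 4 uninjured (sham) libraries of day 7 are given as context only. Cells were sorted by flow cytometry and profiled by bulk RNA sequencing. The labels name the tissue cell as microglia and give no strain, sex or age. They do not say that each library came from a separate mouse, so a p-value here reflects only how these libraries vary, and that variation may be technical.

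Microglia are the resident macrophages of the brain parenchyma. After injury they divide, take on a state marked by genes of lipid handling, lysosomes and phagocytosis, and release cytokines. They also can present peptides to CD4+ T cells on MHC class II molecules, whose chains are held at a low level in resting microglia and are induced together by the transactivator Ciita. Dendritic cells and the macrophages of the brain's borders carry much more MHC class II per cell, so their marker genes are given beside that result.

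The 9 libraries held between 1134078 and 18654785 reads counted on genes. The lowest value belonged to day 7 library 4, and the other 8 held 11006114 or more. In library 4 of day 7, 54.6% of reads were uniquely aligned, against 89.5% to 90.4% in the other 8, and 32.6% of its unique reads fell on ribosomal RNA, against 0.56% to 0.71%. A count of 3 reads corresponds to 2.65 CPM (gene counts scaled to a common library size) in that library and to 0.161 to 0.273 CPM in the others. The microglial markers P2ry12, a purinergic receptor, and Tmem119 were high in every library, at 1019 CPM or more and at 1684 CPM or more.

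A second library stood apart by its expression. Across 8579 genes the library labelled vehicle day 14 library 1 had correlations of log2 CPM of 0.908 to 0.930 with the other 4 libraries of its group and of 0.964 to 0.982 with clodronate day 14 libraries 2 to 5. Vehicle day 7 library 4 correlated at 0.836 to 0.847 with the other 3 libraries of its group. The 7 remaining vehicle libraries correlated at 0.949 to 0.985 among themselves. In turn the library labelled clodronate day 14 library 1 correlated at 0.846 to 0.891 with the other 4 of its group, at 0.921 to 0.962 with vehicle day 14 libraries 2 to 5 and at 0.943 to 0.975 with the uninjured libraries of day 7. That library held 5.36 CPM of Spp1, the secreted phosphoprotein osteopontin, which was at 353 CPM or more in every vehicle library of days 7 and 14 and at 6.68 to 16.03 CPM in the uninjured libraries. Labels were kept as given, and the comparison was run with all 9 libraries and without day 14 library 1 and day 7 library 4.

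**Figure D1:**
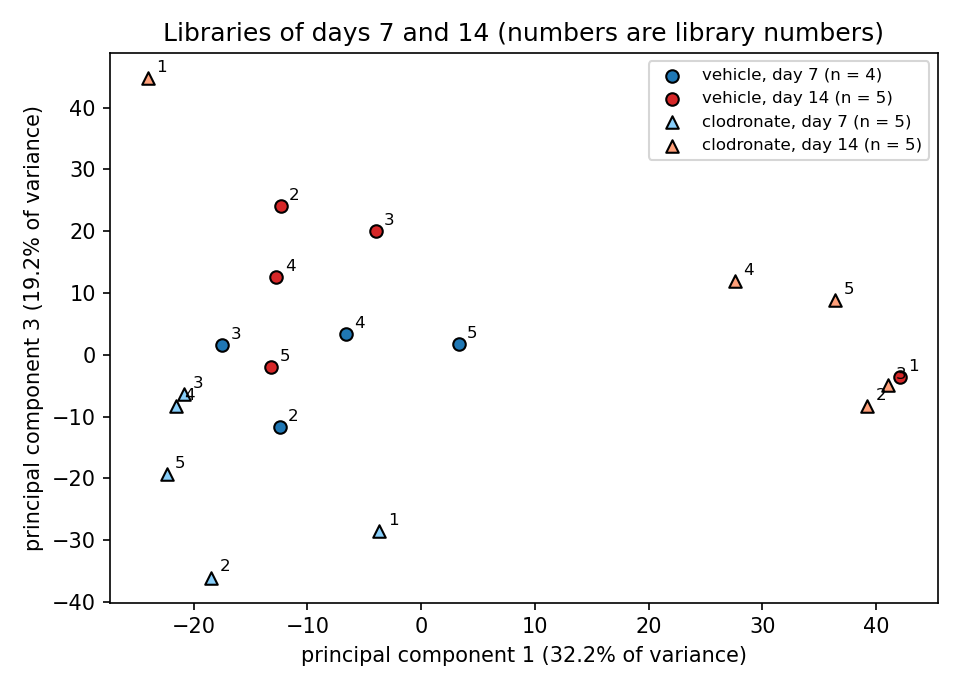
Principal components 1 (32.2% of variance, x axis) and 3 (19.2%, y axis) of log2 CPM of 8579 genes in the 9 vehicle (circles) and 10 clodronate (triangles) libraries of days 7 and 14, with library numbers. Component 2 (22.9%) is not plotted. On it vehicle day 7 library 4 was at -82.7 and all other libraries were at -1.89 to 9.97. The library labelled vehicle day 14 library 1 lies among clodronate day 14 libraries 2 to 5, and the library labelled clodronate day 14 library 1 lies at the opposite end of component 1.

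With all 9 libraries, no gene of 13153 tested passed an adjusted p of 0.05 in edgeR's quasi-likelihood test (0.0% called). At an unadjusted p under 0.05 there were 1151 genes, 454 higher (3.45%) and 697 lower (5.3%) at day 14 (8.75% in all). DESeq2's Wald test called 88 and limma-voom with quality weights 278. Without the 2 libraries that stand apart, 4 day 14 libraries against 3 of day 7, the same edgeR test called 185 of 13278 genes (1.39%), 50 higher (0.377%) and 135 lower (1.02%) at day 14. At an unadjusted p under 0.05, 7.51% of genes were higher and 9.32% lower. With these 7 libraries DESeq2's Wald test called 204 of 13278 genes higher and 426 lower, and limma-voom 65 and 199. List counts below are to be read against these counts and shares of all genes. Of the 185 genes that edgeR called, 184 were tested with all 9 libraries, 176 had the same direction there and 126 had an unadjusted p under 0.05. In day 14 library 1, 101 of the 185 genes lay within or beyond the day 7 range on the day 7 side, 62 lay between the ranges of the other libraries and 22 lay on the day 14 side. Below, rose and fell refer to genes called with the 7 libraries, and fold changes are log2 of day 14 over day 7 with their standard error (SE), from the 7 libraries unless 9 are named.

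Genes of the MHC class II molecule itself rose. Of 8 list members, the chains H2-Aa, H2-Ab1 and H2-Eb1 and the invariant chain Cd74 rose, none fell, and the list's median log2 fold change was 1.84 against -0.000867 for all genes tested. The summed level of the list was 705 to 997 CPM in the 4 day 7 libraries and 1242 to 2212 CPM in the uninjured libraries. Every day 7 library was thus below every uninjured library. The sum was 1263 CPM in day 14 library 1 and 2161 to 3040 CPM in day 14 libraries 2 to 5. In the promoters that RefSeq gives (GRCm38.p6), the Y box, one of the conserved elements of MHC class II promoters, was searched as CTGATTGG on both strands of the 250 bases before the start. It was present in 3 of the 5 list members with an entry, H2-Aa, H2-Eb1 and H2-Oa, and in 3.83% of all 32851 promoters. Its letters include the reverse complement of the CCAAT box. The 2 promoters of chains that rose are shown with the Y box in capitals, H2-Aa from chr17:34287824-34288073 on the minus strand and H2-Eb1 from chr17:34305617-34305866 on the plus strand.
H2-Aa: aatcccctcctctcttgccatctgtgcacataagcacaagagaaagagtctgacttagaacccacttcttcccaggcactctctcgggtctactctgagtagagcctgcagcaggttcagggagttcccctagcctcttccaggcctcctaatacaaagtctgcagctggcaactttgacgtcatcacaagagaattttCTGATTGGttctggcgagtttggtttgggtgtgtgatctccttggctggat
H2-Eb1: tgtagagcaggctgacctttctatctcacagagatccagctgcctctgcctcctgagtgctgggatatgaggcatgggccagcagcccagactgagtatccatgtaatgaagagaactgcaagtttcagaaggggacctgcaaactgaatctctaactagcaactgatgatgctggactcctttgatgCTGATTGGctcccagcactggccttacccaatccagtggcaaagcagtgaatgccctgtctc
A match is a description of the letters and shows no binding.

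H2-Ab1, the beta chain of the I-A molecule, was at 134, 113, 112 and 154 CPM in day 7 libraries 2 to 5 and at 202, 629.9, 681, 619.7 and 459 CPM in day 14 libraries 1 to 5. All 5 day 14 libraries lay above all 4 of day 7, with day 14 library 1 nearest to them. The gene lies at chr17:34257689-34269419 (GRCm38), beside H2-Aa at chr17:34282744-34287823 and H2-Eb1 at chr17:34305867-34316674. Its log2 fold change was 2.17 (SE 0.16, adjusted p = 0.000381) with the 7 libraries and 2.00 (SE 0.31, adjusted p = 0.166) with all 9. H2-Aa, the alpha chain of the same molecule, was at 56.0, 43.6, 52.2 and 62.4 CPM at day 7 and at 72.6, 314, 345, 295 and 199.9 CPM at day 14 (2.43, SE 0.20, adjusted p = 0.000647 with 7 libraries, and 2.18, SE 0.38, adjusted p = 0.185 with 9). The groups again did not overlap.

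H2-Eb1, the beta chain of the I-E molecule, was at 49.2, 43.6, 27.2 and 47.8 CPM at day 7 and at 65.1, 261, 299.8, 274 and 193 CPM at day 14. Its log2 fold change was 2.46 (SE 0.15, adjusted p = 0.0002) with the 7 libraries and 2.34 (SE 0.38, adjusted p = 0.172) with 9. Cd74, the chaperone that fills the peptide groove until loading, was at 296, 281, 191 and 337 CPM at day 7 and at 545, 1243, 1307, 1143 and 925 CPM at day 14. Its log2 fold change was 1.93 (SE 0.13, adjusted p = 0.000352) with 7 libraries and 1.89 (SE 0.26, adjusted p = 0.111) with 9. Every day 14 library was above every day 7 library for all 4 genes, a pattern that 2.8% of all genes tested showed with the 9 libraries (1.41% showed the reverse) and 7.64% with the 7. With all 9 libraries 4 members were called by DESeq2, by voom and by edgeR without day 14 library 1.

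The remaining members of the list did not pass the test. H2-DMa and H2-DMb1, subunits of the peptide exchange factor, were at 205 to 245 CPM and at 61.6 to 135 CPM over the 9 libraries, with overlapping groups. H2-Oa, a subunit of its inhibitor, was at 24.0 to 42.6 CPM. Ciita, the transactivator of these genes, was at 0.974, 0.838, 4.18 and 0.464 CPM at day 7 and at 1.17, 2.32, 2.02, 3.66 and 2.17 CPM at day 14. Its log2 fold change with 7 libraries was 1.74 (SE 0.42, adjusted p = 0.0804), and the 4.18 CPM of day 7 library 4 rests on a library where 3 reads are worth 2.65 CPM. Ciita overlaps Dexi and H2-DMa overlaps Brd2, both on the opposite strand, and whether the counting used strand is not stated in the labels or files.

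Genes of dendritic cells and of macrophages moved with MHC class II in part. Mgl2, a C-type lectin of dendritic cells and macrophages, was at 1.65, 2.67, 0 and 2.94 CPM at day 7 and at 0.467, 19.1, 15.6, 16.7 and 9.77 CPM at day 14. It rose with the 7 libraries (2.67, SE 0.29, adjusted p = 0.00399), and day 14 library 1 was below 3 of the 4 day 7 libraries. Cd209a, a lectin of monocyte-derived dendritic cells, was at 1.27, 0.152, 0 and 0.464 CPM at day 7 and at 0, 6.47, 4.79, 6.93 and 2.26 CPM at day 14 (3.02, SE 0.62, adjusted p = 0.0467 with 7 libraries). Cd209a was near or below the level of 3 reads in day 7 libraries 3 to 5. In day 7 library 2 it was above that level, at 1.27 CPM against 0.229 CPM. The uninjured libraries held 7.46 to 17.8 CPM of Mgl2 and 2.08 to 7.82 CPM of Cd209a, above all day 7 libraries for both genes. These ranges overlapped those of day 14 libraries 2 to 5.

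Ccr7, the chemokine receptor of migrating dendritic cells, was at 0.749, 0.305, 0 and 2.01 CPM at day 7 and at 59.8, 11.8, 29.1, 14.4 and 6.61 CPM at day 14. Its groups did not overlap, the highest value was in day 14 library 1, and its log2 fold change was 3.93 (SE 0.64, adjusted p = 0.0188) with 7 libraries and 4.65 (SE 0.83, adjusted p = 0.193) with 9. Of the 8 dendritic cell genes tested, Ccr7 and Cd209a rose and none fell, although voom called neither, while the summed level of the 9-gene list was 164 to 309 CPM in the 3 day 7 libraries and 226 to 285 CPM in the 4 of day 14. Clec9a, which defines one dendritic cell type, was at 0.472 CPM or less in all 9 libraries.

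None of the 14 border macrophage genes passed the edgeR test with the 7 libraries. At an unadjusted p under 0.05, 4 were higher and 2 lower, against 7.51% and 9.32% of all genes tested. Of the 14 genes, DESeq2 called 4 higher and 1 lower, and voom 1 of each. Their summed level was 521 to 668 CPM in the 3 day 7 libraries and 419 to 656 CPM in the 4 of day 14. Mrc1, the mannose receptor of border macrophages, was at 31.9, 30.3 and 68.9 CPM in the 3 day 7 libraries and at 95.1, 104, 85.7 and 77.4 CPM in the 4 of day 14 (1.06, SE 0.26, adjusted p = 0.0892). Clec10a, a lectin related to Mgl2, had a log2 fold change of 2.36 (SE 0.58, adjusted p = 0.0868). It was at 0.305 to 2.09 CPM at day 7 and at 2.35 to 8.22 CPM in day 14 libraries 2 to 5. The uninjured libraries held 3.21 to 8.66 CPM of it. Stab1, a scavenger receptor in the same list, was at -0.64 (SE 0.16, adjusted p = 0.0868). The part of these cells in the MHC class II result was not tested, and in bulk libraries more cells of a type and more RNA per cell cannot be told apart.

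**Figure D2:**
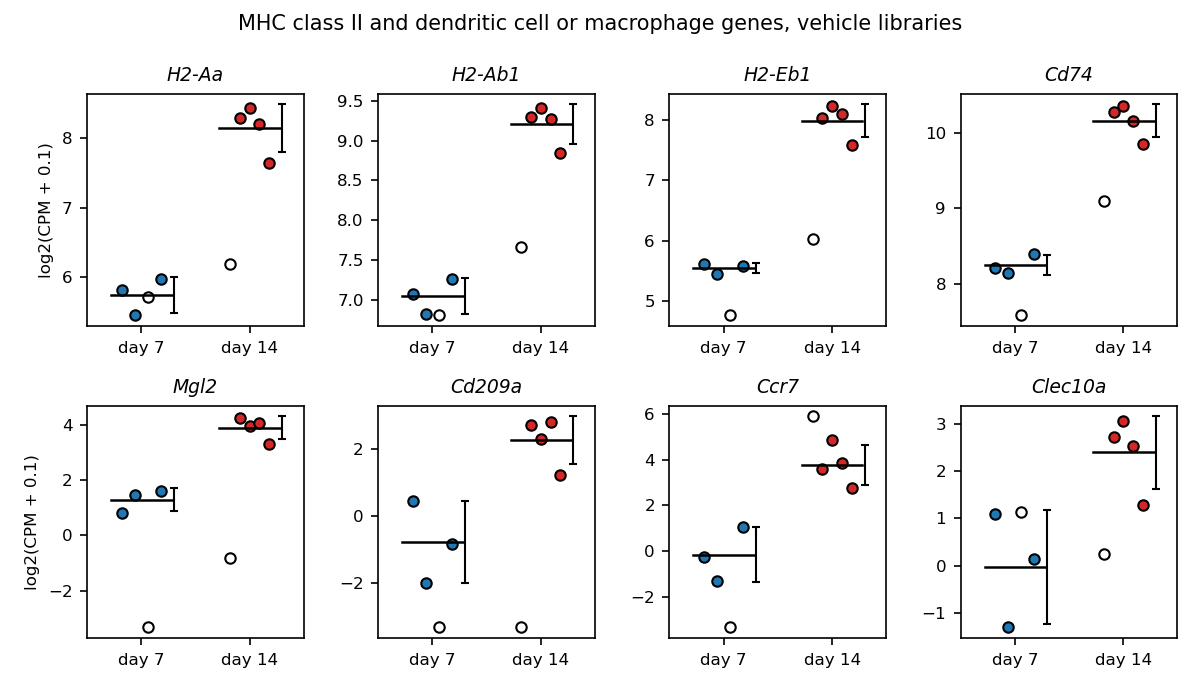
Level in each vehicle library, as log2(CPM + 0.1), of 4 MHC class II genes (top) and 4 dendritic cell or macrophage genes (bottom) at day 7 and day 14. Open circles are day 7 library 4 and day 14 library 1, and lines and bars give the mean and SD of the other libraries (3 and 4). The MHC class II genes of day 14 libraries 2 to 5 lie well above day 7, with library 1 between the groups.

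Genes of the cell cycle fell. Of 37 list members, 26 fell and none rose with the 7 libraries, with a median log2 fold change of -2.07, and 34 had every day 14 library below every day 7 library, which 8.13% of all genes tested did. With all 9 libraries none passed the edgeR test, 26 were lower and none higher at an unadjusted p under 0.05, and the median was -1.53. DESeq2 called 10 of them lower with the 9 libraries, voom 29, and edgeR 14 without day 14 library 1. Summed over the list, the level was 806, 523, 449 and 688 CPM in day 7 libraries 2 to 5, 527 CPM in day 14 library 1 and 303 to 345 CPM in day 14 libraries 2 to 5. The uninjured libraries of day 7 were at 318 to 343 CPM.

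Promoters of genes that act in G2 and mitosis often carry CCAAT boxes, bound by the factor NF-Y. The letters CCAAT, on either strand of the 250 bases before the start, were in 24 of the 30 list members with a RefSeq entry and in 33.8% of all promoters. The promoters of 2 genes described next are shown with each match in capitals, Ccnb2 from chr9:70421555-70421804 and Top2a from chr11:99024190-99024439, both on the minus strand (GRCm38.p6).
Ccnb2: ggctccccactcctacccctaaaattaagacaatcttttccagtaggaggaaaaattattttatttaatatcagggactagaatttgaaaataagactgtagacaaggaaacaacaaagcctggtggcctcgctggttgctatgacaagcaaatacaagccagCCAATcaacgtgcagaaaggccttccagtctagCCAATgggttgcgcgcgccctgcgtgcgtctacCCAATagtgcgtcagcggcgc
Top2a: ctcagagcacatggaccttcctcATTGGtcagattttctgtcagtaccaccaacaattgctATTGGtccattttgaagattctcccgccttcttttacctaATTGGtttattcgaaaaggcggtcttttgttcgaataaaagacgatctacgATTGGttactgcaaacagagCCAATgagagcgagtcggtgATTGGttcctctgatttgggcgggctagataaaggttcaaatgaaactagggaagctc
They hold 3 and 6 matches, and a match shows no binding.

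Ccnb2, cyclin B2 of mitotic entry, was at 14.99, 11.4, 10.4 and 16.2 CPM at day 7 and at 9.03, 0.789, 0.809, 1.11 and 1.63 CPM at day 14. All day 14 libraries were below day 7, with library 1 close to the day 7 range, and the log2 fold change was -3.73 (SE 0.28, adjusted p = 0.000443) with 7 libraries and -2.34 (SE 0.70, adjusted p = 0.484) with 9. Top2a, the topoisomerase that separates replicated chromosomes, was at 28.9, 10.4, 36.6 and 18.01 CPM at day 7 and at 12.8, 1.79, 2.49, 2.03 and 1.72 CPM at day 14. It fell by 3.24 on the log2 scale (SE 0.33, adjusted p = 0.00362) with the 7 libraries, and the groups overlapped only through day 14 library 1 (-2.45 with 9). Bub1b, a kinase of the spindle checkpoint, was at 11.4 to 19.2 CPM in the 3 day 7 libraries and at 3.11 to 4.34 CPM in the 4 of day 14 (-2.07, SE 0.23, adjusted p = 0.00399). Birc5, survivin, fell by 3.38 (SE 0.39, adjusted p = 0.00494, against -2.26 with 9), and Mki67, the antigen Ki-67 of dividing cells, by 3.08 (SE 0.43, adjusted p = 0.00941).

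Mcm2, a subunit of the replicative helicase, was at 37.8, 28.9, 13.6 and 34.5 CPM at day 7 and at 18.6, 15.1, 14.7, 16.7 and 15.9 CPM at day 14 (-1.10, SE 0.12, adjusted p = 0.00399 with 7 libraries). Its lowest day 7 value was in library 4. Mcm5, another subunit, fell by 1.30 (SE 0.20, adjusted p = 0.0158) and the mitotic kinase Cdk1 by 1.44 (SE 0.22, adjusted p = 0.0135). Pcna, the sliding clamp of replication that also serves in repair, was at 41.7 to 58.5 CPM at day 7 and at 40.5 to 56.0 CPM at day 14, with overlapping groups and a log2 fold change of 0.22 (SE 0.11, adjusted p = 0.365). Outside the list, the microtubule regulator Stmn1 (-1.44, SE 0.19, adjusted p = 0.00765), the cytokinesis factor Racgap1 (-2.07, SE 0.30, adjusted p = 0.0106) and the spindle protein Ckap2l (-1.71, SE 0.32, adjusted p = 0.033) fell.

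The number of cell cycle genes called depended on single libraries. It was 13 of 37 without day 7 library 2, 17 without day 14 library 4, 24 to 27 without any one of the other 5, and 4 when the spread was estimated over 26 libraries of all treatments at days 7 and 14. 4 MHC class II genes were called in each of these fits.

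**Figure D3:**
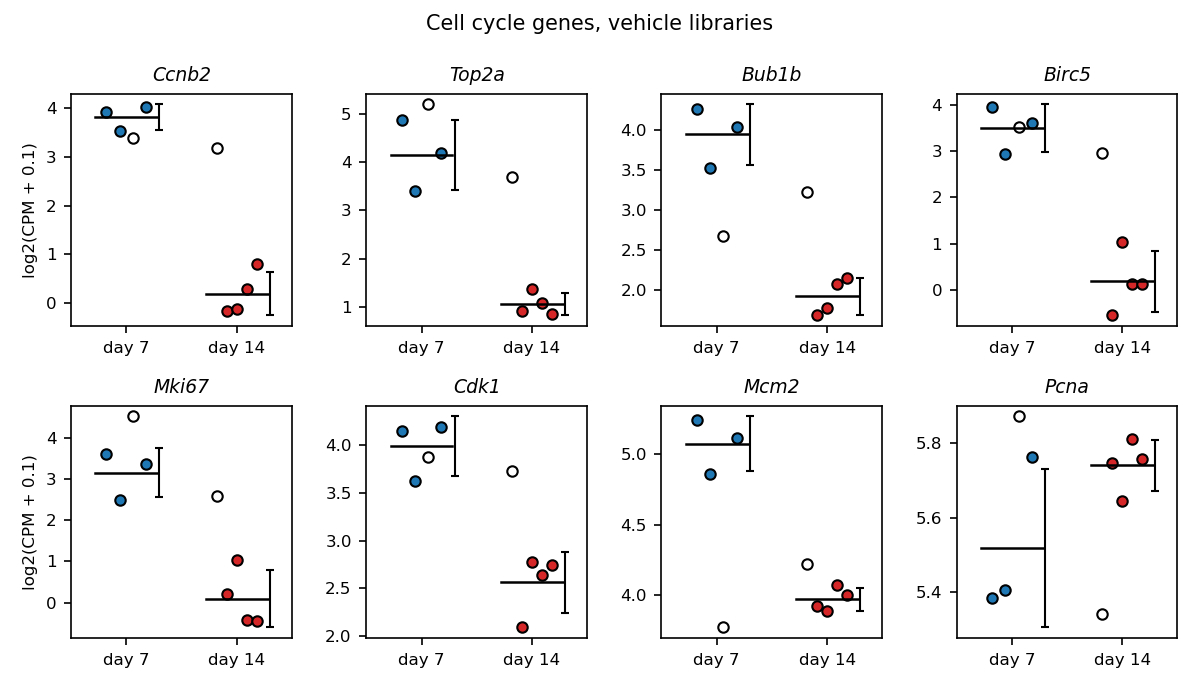
Level in each vehicle library, as log2(CPM + 0.1), of 8 cell cycle genes at day 7 and day 14. Open circles are day 7 library 4 and day 14 library 1, and lines and bars give the mean and SD of the other libraries. All but Pcna lie lower in day 14 libraries 2 to 5 than in day 7 libraries 2, 3 and 5.

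Among genes of the disease-associated microglial state, 2 of 27 tested fell, the survival factor Cd5l and the cytokine Csf1, none rose, and the list's median was -0.222. At an unadjusted p under 0.05, 9 were lower and 1 higher, against 9.32% and 7.51% of all genes tested. DESeq2 called 5 of the 27 genes lower and 1 higher. Their summed level was 40906 to 65422 CPM in the 3 day 7 libraries, 32078 to 60517 CPM in the 4 of day 14, 119843 CPM in day 14 library 1 and 14437 to 16487 CPM in the uninjured libraries. Cd5l, known as the apoptosis inhibitor of macrophages, was at 70.1, 38.5, 103 and 149.9 CPM at day 7 and at 21.6, 2.95, 9.50, 5.36 and 5.97 CPM at day 14. The groups did not overlap with all 9 libraries, and the log2 fold change was -3.87 (SE 0.47, adjusted p = 0.00548) with 7 and -3.32 (SE 0.57, adjusted p = 0.184) with 9. Csf1, the macrophage growth factor, was at 488, 595, 291 and 492 CPM at day 7 and at 95.5, 256, 298, 236 and 239 CPM at day 14 (-1.02, SE 0.11, adjusted p = 0.00391 with 7 libraries). Its lowest value was in day 14 library 1 and the groups overlapped through day 7 library 4.

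Spp1 was at 4163, 2714, 5084 and 5811 CPM at day 7 and at 3985, 353, 2026, 1283 and 1419 CPM at day 14. Its log2 fold change did not pass the test (-1.73, SE 0.46, adjusted p = 0.105 with 7 libraries), although each of day 14 libraries 2 to 5 was below each day 7 library. Gpnmb, a glycoprotein of lipid-laden phagocytes, was at 226 to 546 CPM at day 7 and at 47.6 to 502 CPM at day 14 (-1.36, SE 0.47, adjusted p = 0.187). Apoe, the lipid carrier, was at 14524 to 27761 CPM at day 7, at 14569 to 34774 CPM in day 14 libraries 2 to 5 and at 84188 CPM in day 14 library 1. Lipoprotein lipase, Lpl, and the protease inhibitor Cst7 had log2 fold changes of 0.20 (SE 0.30, adjusted p = 0.783) and 0.40 (SE 0.32, adjusted p = 0.573). In the uninjured libraries Apoe was at 1682 to 2637 CPM and Cst7 at 4.18 to 9.62 CPM, so both stood higher in all 9 vehicle libraries.

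Some genes of lysosomes, lipid storage and sugar metabolism passed the edgeR test, and more were lower at an unadjusted p. Of 27 lysosome genes 3 fell and none rose, against 1.02% and 0.377% of all genes tested. Of the 27, 22 had a negative log2 fold change and the median was -0.279 (16 and -0.063 with 9). At an unadjusted p under 0.05, 16 were lower and 1 higher, against 9.32% and 7.51% of all genes tested (2 and 0 with 9). Every day 14 library was below every day 7 library for 13, against 8.13% of all genes, and DESeq2 called 8 lower. Grn, progranulin, was at 3977, 4130.1, 3552 and 5689 CPM at day 7 and at 5280.3, 2293, 2891, 2726 and 2962 CPM at day 14 (-0.75, SE 0.14, adjusted p = 0.0354 with 7 libraries). Day 14 library 1 was within the day 7 range. The hydrolases Gusb, a glucuronidase, and Man2b1, a mannosidase, fell by 0.60 (SE 0.10, adjusted p = 0.0159) and 0.41 (SE 0.08, adjusted p = 0.0463). Plin2, the coat protein of lipid droplets, was at 373, 265, 336 and 462 CPM at day 7 and at 422, 99.3, 189, 143 and 171 CPM at day 14 (-1.28, SE 0.22, adjusted p = 0.0273 with 7 libraries). It was the 1 gene of 16 called among those of lipid efflux and storage, whose median was -0.319, and 0.047 with 9. In that list 4 genes were lower and 1 higher at an unadjusted p under 0.05, and DESeq2 called 4 lower. Of 21 genes of glycolysis and hypoxia 20 had a negative log2 fold change and 1 fell, the pyruvate kinase Pkm (-0.59, SE 0.12, adjusted p = 0.0438), whose highest level of the 9 libraries, 1910.0 CPM, was in day 14 library 1. Of the 21 genes, 9 were lower and none higher at an unadjusted p under 0.05 with the 7 libraries, and DESeq2 called 5 lower. With all 9 libraries the direction of this list turned, with 13 members higher, 8 lower and a median of 0.081 against -0.299, and Pkm was at 0.08 (SE 0.39, adjusted p = 0.969).

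Some inflammatory effectors passed the edgeR test, and more were lower at an unadjusted p. Of 25 cytokine and NF-kB genes, 2 fell and none rose, against 1.02% and 0.377% of all genes tested. Of the 25, 17 had a negative log2 fold change and the median was -0.265. At an unadjusted p under 0.05, 13 were lower and none higher, against 9.32% and 7.51% of all genes tested. DESeq2 called 5 lower and voom 3. With all 9 libraries 14 were higher and 11 lower, with a median of 0.084. Ptgs2, cyclooxygenase 2, was at 69.8, 72.1, 83.6 and 148 CPM at day 7 and at 71.3, 40.2, 39.5, 26.9 and 36.1 CPM at day 14 (-1.43, SE 0.26, adjusted p = 0.0294 with 7 libraries), and Tnfaip2, induced by TNF, fell by 0.77 (SE 0.14, adjusted p = 0.0332, against -0.07 with 9). Il1b, interleukin 1 beta, was at 313, 429, 268 and 746 CPM at day 7 and at 1810.0, 263, 169, 166 and 259.5 CPM at day 14 (-1.21, SE 0.28, adjusted p = 0.0723 with 7 libraries). The highest value was in day 14 library 1, and with all 9 libraries the log2 fold change was 0.29 (SE 0.71, adjusted p = 0.926). Tnfsf9, the ligand of the costimulatory receptor 4-1BB, was at 36.8, 51.5, 42.8 and 77.8 CPM at day 7 and at 20.1, 18.7, 15.3, 14.8 and 18.4 CPM at day 14. Day 14 library 1 matched its group here, and the log2 fold change was -1.71 (SE 0.22, adjusted p = 0.00723) with 7 libraries and -1.60 (SE 0.21, adjusted p = 0.111) with 9.

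Among surface and secreted proteins, Itgam, the integrin chain CD11b and the 1 complement gene of 14 called, fell by 0.61 (SE 0.11, adjusted p = 0.0345). The complement median was -0.489, and -0.026 with 9. With the 7 libraries 8 complement genes were lower and none higher at an unadjusted p under 0.05. The shares of all genes tested were 9.32% and 7.51%. DESeq2 called 6 complement genes lower. With 9 libraries none was lower or higher at that p. Pros1, protein S, a bridge between dying cells and phagocyte receptors, fell by 0.38 (SE 0.08, adjusted p = 0.0418), and Scarb1, the receptor of high-density lipoprotein, by 0.56 (SE 0.11, adjusted p = 0.0369). The glucose transporter Slc2a6 (-1.52, SE 0.17, adjusted p = 0.00399, and -0.57 with 9), Wfdc17 (-1.86, SE 0.33, adjusted p = 0.0294, and -0.24 with 9; not called by voom), Ctla2a (-2.13, SE 0.33, adjusted p = 0.0136) and the matrix protein Thbs2 (-1.42, SE 0.18, adjusted p = 0.00672) also fell. Galectin 1, Lgals1, fell by 1.56 (SE 0.24, adjusted p = 0.0137).

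2 monocyte list genes and 1 neutrophil list gene fell. Fibronectin, Fn1, was at 231, 93.7, 149 and 78.99 CPM at day 7 and at 249, 18.1, 40.2, 28.8 and 27.96 CPM at day 14 (-2.22, SE 0.36, adjusted p = 0.0191 with 7 libraries, and -0.92 with 9). Thrombospondin 1, Thbs1, fell by 1.65 (SE 0.23, adjusted p = 0.00952), but was at 0.01 with 9. Mmp8, the neutrophil collagenase, fell by 4.69 (SE 0.61, adjusted p = 0.00729, against -2.37 with 9) from 3.05 to 6.72 CPM in the 3 day 7 libraries to 0 to 0.337 CPM in the 4 of day 14. The defining monocyte genes were low and did not pass the test. Ly6c2 was at 0 to 2.70 CPM at day 7 and at 0.196 to 1.79 CPM at day 14 (-1.13, SE 0.98, adjusted p = 0.606). Ccr2 was at 6.397 to 27.8 CPM and at 15.2 to 21.3 CPM (0.22, SE 0.37, adjusted p = 0.811). The neutrophil gene Ly6g had no count in any of the 9 libraries. The summed level of the 15 monocyte genes was 235 to 559 CPM at day 7, 202 to 235 CPM in day 14 libraries 2 to 5 and 1409.7 CPM in day 14 library 1. That library also held 490.4 CPM over the 17 T and NK cell genes, against 15.3 to 28.4 CPM in the other 8, of which 473 CPM was the chemokine gene Ccl5 and 0.623 CPM Cd3e. The part of monocytes and lymphocytes in these differences was not tested.

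Some genes of the rapid transcriptional response rose. Of 21 immediate early genes, 4 rose and 1 fell, against 0.377% and 1.02% of all genes tested, with a median of 0.336. At an unadjusted p under 0.05, 14 were higher and 1 lower, against 7.51% and 9.32% of all genes (5 and 3 with 9 libraries). Every day 14 library was above every day 7 library for 11 of them, against 7.64% of all genes. DESeq2 called 11 higher and 1 lower, and voom 5 and 1. The summed level was 51893 to 63224 CPM in the 3 day 7 libraries and 72541 to 79759 CPM in the 4 of day 14. Day 14 library 1 was at 50623 CPM and the uninjured libraries at 78049.6 to 90731 CPM. Ier5 was at 1314, 1532, 1128 and 1209 CPM at day 7 and at 1372, 2144, 2156, 2118 and 1999.6 CPM at day 14 (0.65, SE 0.10, adjusted p = 0.013 with 7 libraries). Ier3 (0.71, SE 0.11, adjusted p = 0.0134), the antiproliferative gene Btg2 (0.57, SE 0.10, adjusted p = 0.0249) and the transcription factor gene Atf3 (0.52, SE 0.10, adjusted p = 0.0369) rose. The nuclear receptor gene Nr4a1 fell by 0.75 (SE 0.15, adjusted p = 0.0491), and Fos had a log2 fold change of 0.42 (SE 0.10, adjusted p = 0.0725). These genes also respond to tissue dissociation, and whether handling differed between the days was not tested. The heat shock genes, which respond to handling too, had no member of 14 called by edgeR, DESeq2 or voom, and 2 were higher at an unadjusted p under 0.05. All 14 had a positive log2 fold change with the 7 libraries (median 0.471) and 12 with 9 (median 0.318). Their summed level was 3234 to 4570.1 CPM in the 3 day 7 libraries, 3405 to 10836 CPM in the 4 of day 14 and 9475 to 13814 CPM in the uninjured libraries, and its part in the other differences was not tested.

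Of 22 genes of ER stress and the Atf4 response 1 rose and 1 fell, with a median of 0.124. Atf4, the factor of the integrated stress response, was at 169.5, 194, 229 and 179.7 CPM at day 7 and at 161, 324, 285, 303 and 332 CPM at day 14 (0.79, SE 0.09, adjusted p = 0.00399 with 7 libraries). Its target Psat1, of serine synthesis, fell by 0.93 (SE 0.17, adjusted p = 0.0294), and the other 20 were not called. Outside that list, Myc was at 109, 119, 70.0 and 105 CPM at day 7 and at 98.9, 166, 189.6, 207 and 177 CPM at day 14 (0.75, SE 0.10, adjusted p = 0.0068). Txnip, the inhibitor of thioredoxin (0.78, SE 0.12, adjusted p = 0.0135), the ubiquitin ligase gene Siah2 (0.80, SE 0.08, adjusted p = 0.00294) and the cytokine signalling inhibitor Socs1 (1.16, SE 0.20, adjusted p = 0.0265) rose. Pnrc1 (0.67), the TFIID subunit Taf7 (0.67), the checkpoint regulator Mad2l1bp (0.73), the coat protein Sec24a (0.82) and the splicing factor Tra2b (0.69) rose too, each with an adjusted p of 0.0465 or less.

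The interferon response and the homeostatic genes had no member called by edgeR with either set of libraries. Of 35 interferon genes, 33 had a negative log2 fold change with the 7 libraries, and the median was -0.607. At an unadjusted p under 0.05, 18 were lower and none higher, against 9.32% and 7.51% of all genes tested. DESeq2 called 5 of the 35 lower and voom 1 lower. Ifit2 was at 49.1, 47.8, 14.6 and 113 CPM at day 7 and at 44.4, 21.3, 29.9, 24.8 and 38.2 CPM at day 14 (-1.29, SE 0.30, adjusted p = 0.0774 with 7 libraries). Ifi27l2a (-1.24, SE 0.31, adjusted p = 0.0947), Ifit3 (-0.74, SE 0.33, adjusted p = 0.304) and the regulator Irf7 (-0.62, SE 0.31, adjusted p = 0.356), which overlaps Phrf1 on the other strand, gave no call. The summed interferon level was 1532 to 2706 CPM in the 3 day 7 libraries, 1059.8 to 1662 CPM in the 4 of day 14 and 612 to 665 CPM in the uninjured libraries.

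The median of the 24 homeostatic genes was 0.052 with 7 libraries. At an unadjusted p under 0.05, 4 were higher and 3 lower, against 7.51% and 9.32% of all genes tested. DESeq2 called 2 of the 24 lower, and voom 1 in each direction. P2ry12 was at 2329.8, 3210.4, 1919.8 and 2867 CPM at day 7 and at 1019, 3463, 2999, 3074 and 2691 CPM at day 14. Its log2 fold change was 0.13 (SE 0.13, adjusted p = 0.646) without library 1, the lowest of the 9. Tmem119 (0.13, SE 0.11, adjusted p = 0.574), the fractalkine receptor Cx3cr1 (0.39, SE 0.13, adjusted p = 0.176), the secreted Olfml3 (-0.42, SE 0.09, adjusted p = 0.0596) and the matrix protein Sparc (-0.37, SE 0.08, adjusted p = 0.0666) did not pass. Uninjured libraries held 4623 to 5564 CPM of P2ry12, above all 9 vehicle libraries.

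**Figure D4:**
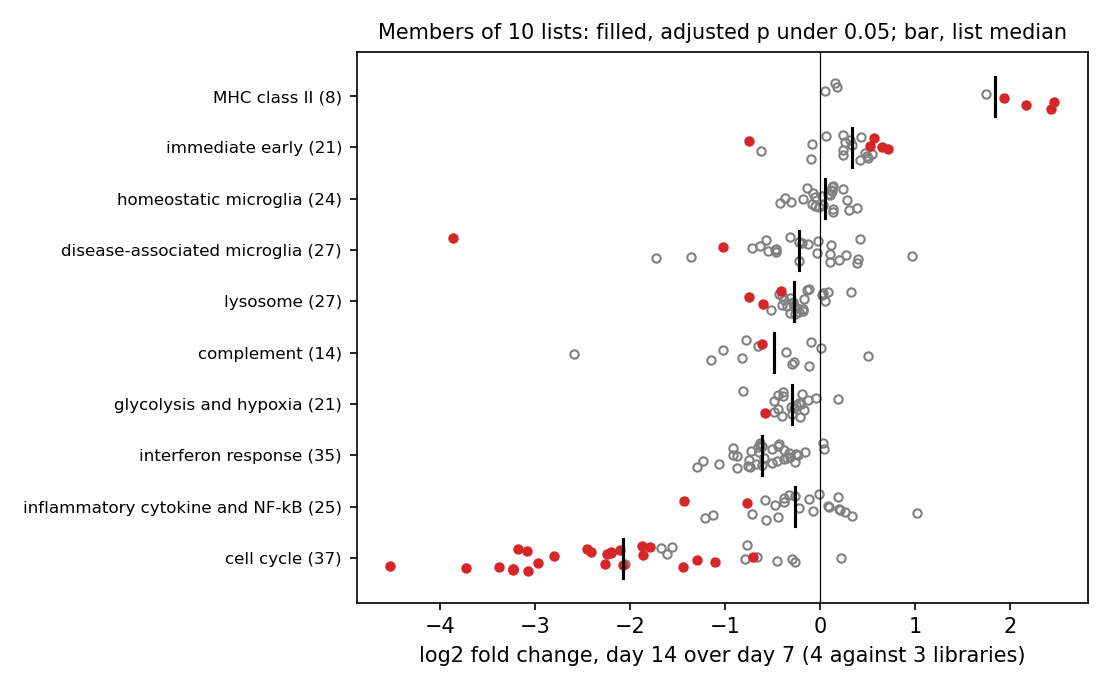
Log2 fold change of day 14 over day 7 with the 7 libraries (4 against 3) for the members of 10 gene lists, with the number tested in parentheses. Filled points passed an adjusted p of 0.05 in edgeR, and bars mark list medians. The MHC class II list lies to the right and the cell cycle list to the left, and the other lists lie nearer to 0.

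Markers of other brain cells varied among libraries of both days. The summed level of 19 endothelial and mural genes was 1306, 959.5 and 428 CPM in day 7 libraries 2, 3 and 5 and 213 to 1012 CPM in day 14 libraries 2 to 5. No member was called by edgeR. Of the 17 tested, 4 were lower at an unadjusted p under 0.05, against 9.32% of all genes. The endothelial receptor Tie1 had a log2 fold change of -1.31 (SE 0.48, adjusted p = 0.212). Of 10 oligodendrocyte genes 7 had a positive log2 fold change, with a median of 1.22 (0.659 with 9). At an unadjusted p under 0.05, 5 were higher, against 7.51% of all genes. Of the 10 genes, edgeR called 1, DESeq2 4 and voom 2. Their summed level was 223 to 238 CPM in the 3 day 7 libraries and 243 to 393 CPM in the 4 of day 14. Of 10 neuron genes all had a positive log2 fold change with 7 libraries (median 0.668) and 7 with 9 (median 0.197), with none called, 2 higher at an unadjusted p under 0.05, and sums of 24.6 to 29.1 CPM at day 7 and 22.2 to 80.6 CPM at day 14. Mag, a myelin glycoprotein, rose by 0.46 (SE 0.09, adjusted p = 0.0458) from 30.6 to 34.7 CPM to 41.8 to 45.6 CPM. S100b, the 1 astrocyte gene of 12 called by edgeR and not called by voom, rose by 2.02 (SE 0.38, adjusted p = 0.0346), from 0.674 to 1.08 CPM to 2.74 to 5.36 CPM, and overlaps Dip2a, on the opposite strand and at a higher level. Their part in the other differences was not tested.

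The other vehicle times place both days in a sequence, given as values because days 1 and 60 include libraries of other years. H2-Ab1 was at 29.3 to 50.7 CPM in the 2 libraries of day 1 that share the year of days 7 and 14, at 63.7 to 85.1 CPM in 2 of another year, at 225 to 306 CPM at day 30 (4 libraries) and at 379 to 581 CPM at day 60 (4 libraries). Day 14 libraries 2 to 5, at 459 to 681 CPM, lay above day 30, and the uninjured libraries were at 237 to 471 CPM. Ccr7 was at 1.23 CPM or less at day 30 and in the uninjured libraries, below every day 14 library. Ccnb2 was at 0.747 to 3.35 CPM at day 1, at 0.352 to 1.02 CPM at day 30 and at 0.924 to 3.94 CPM in the uninjured libraries. Day 7 was thus the time with the highest Ccnb2 levels among the vehicle libraries plotted. Other cell cycle genes that fell did not all share this order. Mcm2 was at 56.5 to 118 CPM in the day 1 libraries of the same year and at 217 to 242 CPM in those of another. Mcm5 was at 49.7 to 111 CPM and at 166 to 235 CPM there, and both genes stood above all day 7 libraries. Top2a, at 2.98 to 31.0 CPM at day 1, overlapped day 7. Cd5l showed the same order as Ccnb2, with 6.03 CPM or less at day 1, 1.88 CPM or less at day 30 and 1.28 CPM or less in the uninjured libraries. Tnfsf9 did not: it was at 34.1 to 58.2 CPM at day 30, above all 5 day 14 libraries.

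**Figure D5:**
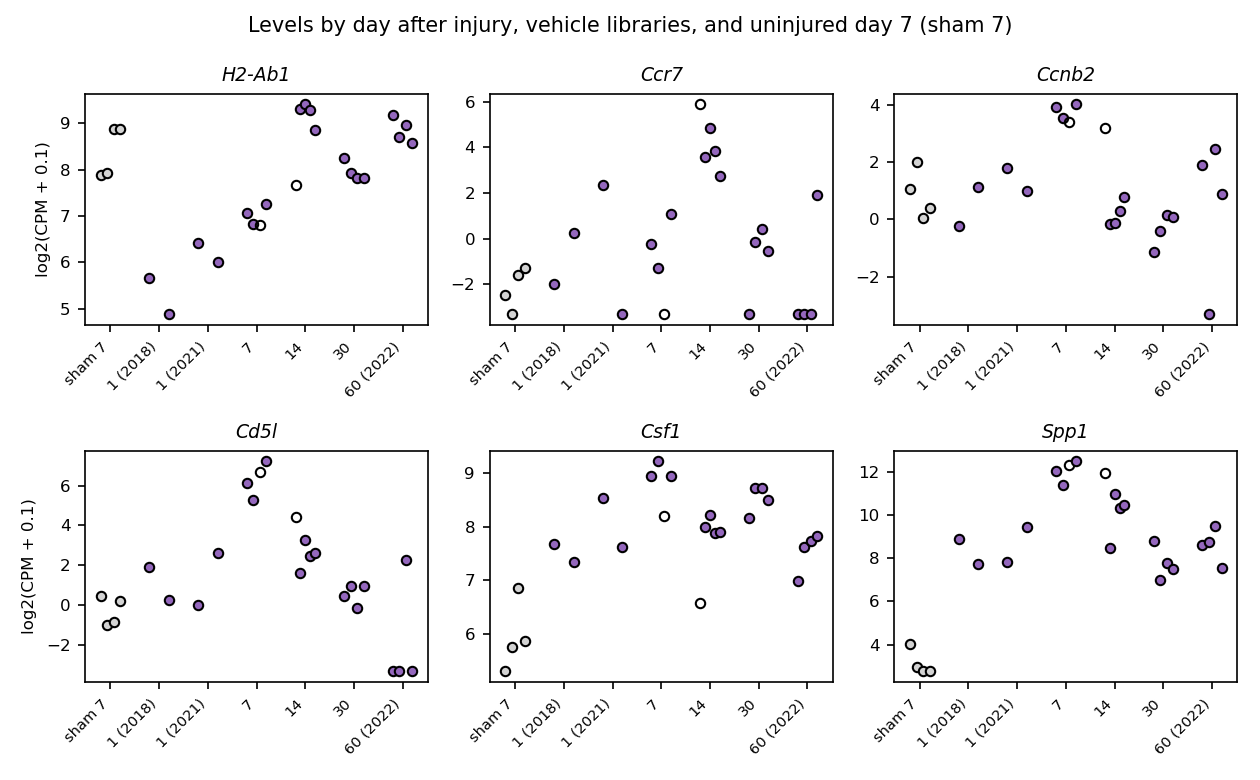
Level of 6 genes, as log2(CPM + 0.1), in each library of the uninjured day 7 group (grey, n = 4) and of vehicle days 1, 7, 14, 30 and 60 (purple, n = 2 and 2, 4, 5, 4 and 4), with the library year where it differs from days 7 and 14. Open circles are day 7 library 4 and day 14 library 1. In day 60 libraries 1 and 2, 3 reads are 2.70 and 1.37 CPM, so low levels there are uncertain. Ccnb2 and Cd5l are highest at day 7, and H2-Ab1 in day 14 libraries 2 to 5 exceeds day 7 and day 30.

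The day effect in vehicle was tested against the day effect in clodronate, whose 10 libraries are separate. With all 19 libraries, 180 of 14186 genes were called (1.27%), 178 with a more positive (1.25%) and 2 with a more negative (0.0141%) day effect in vehicle, and 0 genes were called in 11 of the 19 fits that leave out one library. Among those with the smallest p were Mal, Hid1, Dync1i1 and Slc16a8. Mal, a membrane protein of epithelia and myelin, was at 5.18 to 18.4 CPM at day 7 and at 3.89 to 14.8 CPM at day 14 in vehicle, and fell in clodronate from 20.7 to 48.0 CPM at day 7 to 1.80 to 2.295 CPM at day 14. Its difference of day effects was 3.42 (SE 0.56, adjusted p = 0.0316). Of 17 endothelial and mural genes tested 11 were called higher and of 8 choroid plexus and ependyma genes 3, so these marker lists moved with this result, and their part in it was not tested.

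Without vehicle day 14 library 1, vehicle day 7 library 4 and clodronate day 14 library 1, a choice made after seeing the data, 2010 (13.9%) of 14426 genes were called, 7.04% higher and 6.89% lower. Cell cycle genes were lower in the vehicle day effect for 16 of 37 and higher for none. Other lists had larger shares called. Lower were 19 of 27 lysosome, 14 of 21 glycolysis and hypoxia and 11 of 15 complement genes. Higher were 12 of 24 homeostatic, 16 of 18 endothelial and mural and 8 of 8 choroid plexus and ependyma genes. The part of other cells in this result was not tested. Ccnb2 differed by -3.94 (SE 0.68, adjusted p = 0.00136), with a clodronate day effect of 0.20 (SE 0.41, adjusted p = 0.787). Spp1 differed by -3.92 (SE 0.58, adjusted p = 0.000451), and it rose in clodronate by 2.19 (SE 0.38, adjusted p = 0.000401). Apoe differed by -2.10 (SE 0.35, adjusted p = 0.00108). The clodronate comparison called 24.2% of genes without its library 1 and 11.4% with it.

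The 4 MHC class II genes that rose did not pass this test. H2-Ab1 rose between the days in clodronate too, by 1.60 (SE 0.28, adjusted p = 0.000415) without library 1 and by 1.68 (adjusted p = 0.0016) with it. Its difference of day effects was 0.57 (SE 0.43, adjusted p = 0.43) over the 16 libraries and 0.33 (SE 0.47, adjusted p = 0.791) over 19, which does not show that the effects were alike. Neither did the test call H2-Aa, at 0.78 (SE 0.54, adjusted p = 0.385), H2-Eb1, at 0.84 (SE 0.51, adjusted p = 0.315), and Cd74, at 0.64 (SE 0.27, adjusted p = 0.131). The 1 member of 8 called was H2-DMa, at 0.53 (SE 0.15, adjusted p = 0.0252). Mgl2 did differ, by 3.38 (SE 0.80, adjusted p = 0.00945), with a clodronate day effect of -0.72 (SE 0.55, adjusted p = 0.4).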

How the data were processed

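Bulk RNA-seq libraries of sorted microglia were used as deposited. Per the labels' protocols, RNA from a PicoPure kit was turned into cDNA, given 11 PCR cycles and prepared with the Nextera XT kit. STAR and the mm10 (GRCm38) build are named in the submitters' processing notes, and the deposited files carry read counts per gene in HTSeq layout, with strand setting and versions not given in the sources used here. A table of run statistics, deposited by the authors, gives percent aligned, duplicate and ribosomal reads, and 1 of its lines matches no library. Rows that name no gene (4.40% to 22.4% of reads for no feature) were left out. Gene symbols came from GENCODE M21 (49412 of 49671 identifiers).

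Counts of the 9 vehicle libraries were scaled by TMM, filtered by filterByExpr (minimum count 10, total 15) and tested with edgeR 4.0.16 (quasi-likelihood F test, R 4.3.3), with Benjamini-Hochberg adjustment over all genes tested and calls at 0.05. The same fit was run without vehicle day 14 library 1 and day 7 library 4, and the difference of day effects was tested over 19 libraries. Levels are CPM after TMM over all libraries used, and log2 CPM has a prior count of 2. SE is taken as the absolute log2 fold change over the root of F. Alternatives used DESeq2 1.42.0 and limma 3.58.1 (voom with quality weights). The procedure was tested on simulated data: with 7 libraries it recovered 51 of 100 genes changed 2-fold and 84 of 100 changed 4-fold, and with 9 libraries 32 and 77, while 5 and 8 unchanged genes were called in all. Simulated counts were drawn independently for each gene and library. No simulated library therefore departed in expression over many genes together, as day 14 library 1 and day 7 library 4 did. The recovery with 9 libraries cannot be carried over to the real data.

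Groups follow the treatment, time and library name labels. The 41 gene lists (702 genes) and the members were chosen with earlier results of these data known. Named genes are up to 15 called genes per direction by size of change (mean log2 CPM of 3 or more, groups not overlapping), then by p, up to 5 called members per list (3 for other cells), 2 by smallest p in lists with none called, 5 of the difference of day effects (1 of them is not reported here), and a fixed set of 16. The rule was written for the 9-library calls and, since there were none, was applied to the 7-library calls after seeing the data. Ciita, H2-DMa, H2-DMb1, H2-Oa, Mrc1, Pcna, Ccne1, Clec9a, Ly6g and Cd3e fall outside the rule and were named after their values were seen. Promoter sequences are those of RefSeq (GRCm38.p6). Libraries of one group were compared pairwise, and none agreed within sampling noise (lowest chi-square per degree of freedom 10.9).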

Additional observations from a re-analysis of the deposited data

Results flagged for a closer look

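Among the genes in the text, a gap test on log2 CPM within each group marked single libraries that lay far from the rest. For genes not chosen by these values, chance does so for about 1 group in 20. Many of the genes were chosen by calls made without day 14 library 1 and day 7 library 4. The counts of marks for these 2 libraries therefore cannot be set against that rate. Day 14 library 1 was marked for 22 genes and day 7 library 4 for 3. Day 14 library 1 was the lowest of its group for H2-Eb1 (65.13 CPM), Mgl2 (0.4669 CPM), Cd209a (0 CPM), Csf1 (95.48 CPM), Ier5 (1372 CPM), Atf3 (2895 CPM), Atf4 (161.4 CPM), Siah2 (60.23 CPM), Taf7 (64.43 CPM), P2ry12 (1019 CPM) and Cx3cr1 (2598 CPM). It was the highest for Ccnb2 (9.026 CPM), Top2a (12.76 CPM), Gusb (811.2 CPM), Man2b1 (1994 CPM), Pkm (1910 CPM), Itgam (441.7 CPM), Tnfaip2 (261 CPM), Il1b (1810 CPM), Slc2a6 (108.5 CPM), Wfdc17 (250.3 CPM) and Thbs1 (285 CPM). Day 7 library 4 was the lowest of its group for Ccne1 (0 CPM), Pros1 (246.5 CPM) and Scarb1 (59.54 CPM).

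The day effect in vehicle differed from that in clodronate by a test of the difference for Mal (3.42), Hid1 (3.58), Dync1i1 (4.52) and Slc16a8 (4.47), as log2 values over 19 libraries.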

How the results depend on the processing

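With 9 libraries the count of called genes was 0 with edgeR under TMM or DESeq2's size factors, 88 with DESeq2's Wald test, 278 with limma-voom, 9 without the low count filter, 185 without day 14 library 1 and day 7 library 4, and 12 with the spread estimated over all 28 libraries of days 7 and 14. Leaving out one library at a time gave 0 to 48, with the 48 without day 14 library 1 and 0 in the other 8. With 7 libraries the 185 calls became 188 with DESeq2's size factors, 264 with limma-voom, 630 with DESeq2's Wald test, 615 without the filter and 23 with the spread of 26 libraries. Leaving out one library gave 49 (without day 7 library 2) to 193, with 62 without day 14 library 4, 101 without library 2 and 105 without library 3 of day 14. Each of the 185 genes kept its direction in every one of these fits. The difference of day effects gave 180 calls, 576 with DESeq2, 1308 with limma-voom, 296 without the filter, 508 without the 2 vehicle libraries and 2010 also without clodronate day 14 library 1. Leaving out one library there gave 0 to 616, with 0 in 11 of 19 fits, so these calls rest on many single libraries. 3 named genes changed sign with 7 libraries, none of them called: Ccr2 (-0.17 to 0.85 with one library left out, lowest without day 7 library 3), Lpl (-0.13 to 0.44, lowest without day 14 library 3) and Ly6c2 (-1.71 to 0.15, highest without day 7 library 2, and 0.42 with limma-voom).

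Replicate numbers did not pair the libraries: correlations of same-numbered deviations were -0.228 to 0.0131 with 9 libraries and -0.291 to -0.151 with 7. With the replicate number as a block, only numbers present in every group could be kept. Starting from the 9 libraries this left out day 14 library 1, and 10 genes were called, against 48 without it and without a block. Starting from the 7 it left out day 14 library 4, and 1 gene was called, against 62. In the difference of day effects it left out every library numbered 1, and 1570 genes were called. The block and the lost libraries therefore changed together. In the block fit that started from the 7 libraries, 1 MHC class II gene and 0 cell cycle genes were called. Without day 14 library 4 and without a block, these counts were 4 and 17.

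Depth limits day 7 library 4, where 3 reads are 2.65 CPM. It also limits vehicle day 60 libraries 1 and 2, with 1109856 and 2193120 reads counted on genes. There 3 reads are 2.70 and 1.37 CPM. These floors cover counting error only.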
